A study of Mus musculus with 3 samples.

Results

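Among T cells recovered from heart allografts, a minority carried transcripts of Itgae, the gene of the integrin alpha E chain (CD103), and those cells are described here. They were chosen by raw counts in the heart library. A barcode needed 1000 or more unique molecular identifiers (UMIs, counted molecules), 500 or more genes, and no more than 10% of UMIs from mitochondrial genes. It also needed at least 6 UMIs summed over Cd3d, Cd3e, Cd3g, Trac, Trbc1 and Trbc2, at most 1 Lyz2 UMI, at most 1 UMI summed over 10 cycling genes (Mki67, Top2a, Ccnb1, Ccnb2, Cdk1, Birc5, Cenpf, Tpx2, Ube2c and Rrm2), and at least 2 Itgae UMIs. This gave 425 Itgae-positive cells among 2714 heart cells within the same limits, and 10657 cells passed the quality limits in both wild-type libraries together. They were set against the 1842 heart cells of the same filter with no Itgae UMI. The values that chose the cells, Itgae first among them, are given as description only.

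The study transferred wild-type (WT) or Ldha-/- TEa cells, which carried a congenic mark and were naïve, into C57BL/6 mice that then received BALB/c hearts. TEa cells are CD4+ T cells with a transgenic receptor for a peptide of the BALB/c I-E alpha chain, so that all of them recognise the graft's alloantigen. At day 7 after transplantation, single-cell libraries with 1 library per group were made of WT TEa cells from the heart allograft, WT TEa cells from the spleen and Ldha-/- TEa cells from the spleen. The cells described here are WT cells of 1 heart library, the WT spleen library is used beside them, and the genes of the Ldha-/- library were not analysed here. How many mice a library pools is not stated in the labels, and with 1 library there is no test, no p-value and no replicate error. All intervals are 95% intervals that cover counting error only.

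CD103 pairs with the integrin beta 7 chain, made by Itgb7, and the pair binds E-cadherin on epithelial cells. TGF-beta signalling through Smad proteins induces Itgae, and CD103 is used, with CD69 and the chemokine receptor CXCR6, as a mark of T cells that stay in a tissue. Such cells typically have little of the transcription factor KLF2 and its target S1PR1, the receptor that guides T cells out of tissue.

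Itgae transcripts were sparse even in the cells that had them. Of the 2714 heart cells, 1842 had 0 Itgae UMIs, 447 had 1, 223 had 2, 95 had 3, 62 had 4, 21 had 5, 8 had 6 and 16 had 7 or more. The 425 positive cells held a median of 2 and at most 10 Itgae UMIs, and their 1260 UMIs were 73.8% of all Itgae UMIs in heart cells within the limits. Just inside the threshold of 2 stood 223 cells and just outside it 447, so the boundary cuts a continuous range. The positive share was 15.7% (exact binomial interval 14.3 to 17.1%).

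The share was higher among deeper cells. Itgae-positive cells had a median of 8104 UMIs and 2168 genes, against 7167.5 UMIs and 1955 genes in Itgae 0 cells. With cells split at 6482 and 8359 UMIs, they made up 8.73% of the third with the fewest UMIs, 17.3% of the middle tertile and 20.99% of the third with the most. With every cell thinned to 3000 UMIs, 17.7% of heart cells kept at least 1 Itgae UMI (interval 16.3 to 19.2%) and 4.47% kept at least 2. A cell with 0 Itgae UMIs is therefore not shown to lack the transcript.

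Itgae was nearly confined to the heart library of the 2 wild-type ones, where organ and library cannot be separated. In the WT spleen library 8 of 6020 cells within the same limits had at least 2 Itgae UMIs (0.133%, interval 0.0574 to 0.262%), at a median depth of 7904.5 UMIs, close to the 7365 UMIs of heart cells. After thinning to 3000 UMIs, 17.7% of heart cells and 0.367% of spleen cells had at least 1 Itgae UMI. Barcodes of the heart library taken as empty droplets held Itgae at 59.8 normalised counts (CPM, scaled to a total of 1000000; interval 48.4 to 73.0), against 79.5 CPM in heart cells. None of 16 myeloid barcodes, chosen by Lyz2 and with a median of 15462 UMIs, held an Itgae UMI, where 3 counts of 16 allow a share of up to 18.8%, beside 32.1% of heart T cells with at least 1. Most myeloid cells lack Itgae, but a subset of dendritic cells expresses it. No barcode of an Itgae-positive cell recurred among the cells of the spleen library or the barcodes of the Ldha-/- library, while 6 barcodes were shared between all heart and spleen cells.

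**Figure D1:**
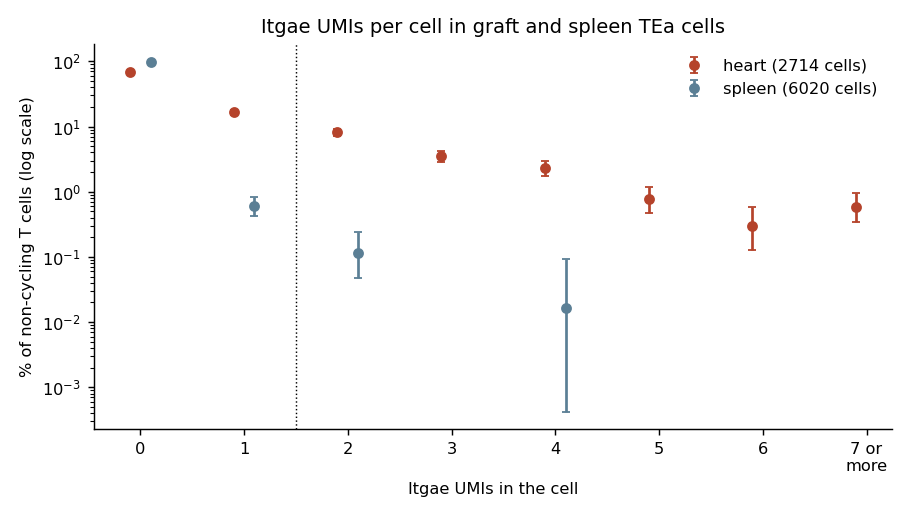
Share of non-cycling T cells (log scale) by the number of Itgae UMIs in the cell, in the heart library (2714 cells) and the spleen library (6020 cells). Bars are exact 95% binomial intervals, classes with no cell are not drawn, and the dotted line is the threshold of 2; 425 heart cells and 8 spleen cells lie to its right.

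Against the name residency-like, the other genes used to mark these cells differed little. Pmepa1, a TGF-beta target that restrains Smad signalling, was at 550 CPM in Itgae-positive cells and 436 CPM in Itgae 0 cells, a ratio of 1.26 (interval 1.199 to 1.33). Cxcr6 was at 410 CPM in Itgae-positive cells and 361 CPM in Itgae 0 cells, a ratio of 1.14 (1.07 to 1.202), and a log2 ratio of -0.01 among the shallowest tertile of cells. Both genes were abundant in Itgae 0 heart cells as well, and both were lower in spleen cells with no Itgae UMI, at 8.37 CPM for Pmepa1 and 19.5 CPM for Cxcr6. At 3000 UMIs a cell, Cxcr6 and Pmepa1 were both found in 41.0% of Itgae-positive cells (36.3 to 45.9%) and 30.4% of Itgae 0 cells (28.3 to 32.6%), while neither was found in 13.0% of Itgae-positive and 20.4% of Itgae 0 cells. None of the 16 myeloid barcodes had a UMI of either gene.

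Cd69, whose product holds S1PR1 inside the cell, was lower, at 112 CPM in Itgae-positive cells and 141 CPM in Itgae 0 cells (ratio 0.796, 0.715 to 0.885). By depth its log2 ratio was 0.21 in the shallowest, -0.41 in the middle and -0.26 in the deepest tertile of cells. Itga1, the CD49a collagen receptor of many resident cells, was near its floor at 7.76 CPM in Itgae-positive cells and 6.09 CPM in Itgae 0 cells (ratio 1.27, 0.806 to 1.96). Itgb7, the partner chain, was at 244 CPM in Itgae-positive cells and 228 CPM in Itgae 0 cells (ratio 1.07, 0.995 to 1.15), so the partner was present in both. The cells are therefore called Itgae-positive below.

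Across the transcriptome most genes differed little between the 2 sets. Of 2145 genes with a mean of at least 50 CPM, 90.7% differed by less than 1.2-fold, and the median log2 ratio was 0.04. Ratios are log2 of (CPM + 1) in Itgae-positive over (CPM + 1) in Itgae 0 cells, from summed counts of 3737279 UMIs in Itgae-positive and 14126591 UMIs in Itgae 0 cells. At least 1.5-fold higher were 9 genes (0.42% of those measured) and at least 1.5-fold lower were 5 (0.233%). These 14 genes (0.653%) are the tail of a distribution of sizes and carry no test. Of them 64.3% were on the higher side. With mitochondrial, ribosomal protein and Malat1 counts left out of the totals, 16 were higher and 16 lower. This lifts more genes over the 50 CPM floor and also shifts the ratios. Ribosomal protein genes took 30.4% of UMIs in Itgae-positive and 32.0% in Itgae 0 cells. Of the 12 genes lowest by ratio, 5 were past 1.5-fold with the full totals and 9 with the smaller ones.

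**Figure D2:**
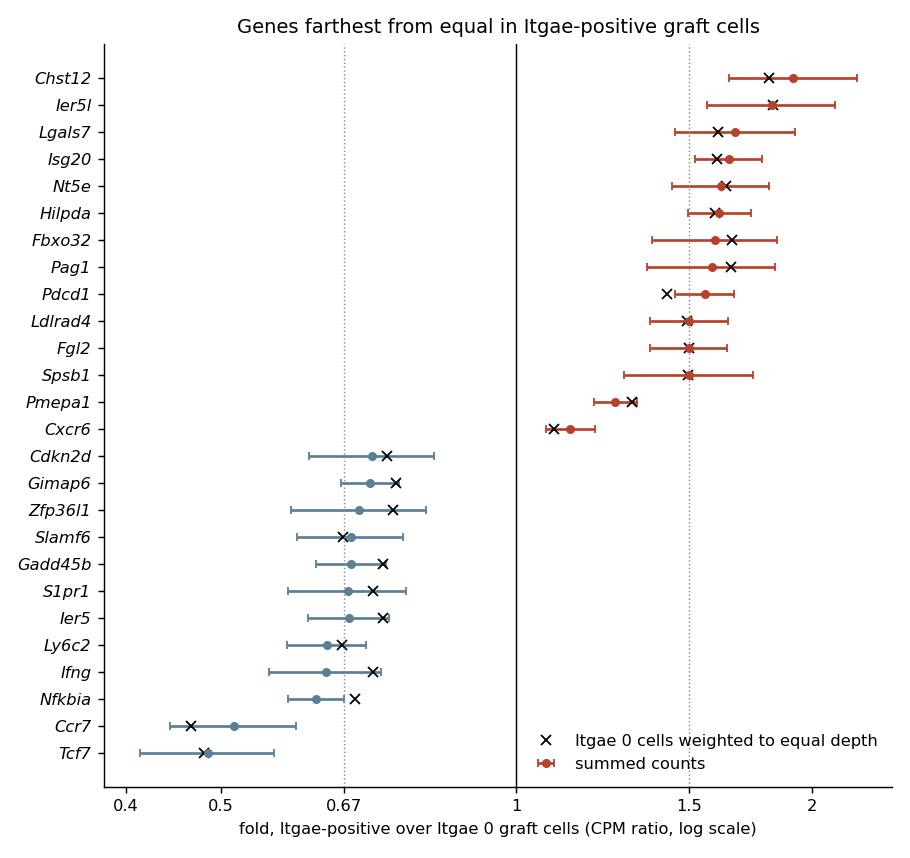
Ratio of CPM in Itgae-positive over Itgae 0 heart cells (log scale) for genes of at least 50 CPM, the top 12 and the bottom 12 by ratio, with Pmepa1 and Cxcr6 between them. Points are summed counts with exact 95% counting intervals, crosses the ratio with Itgae 0 cells weighted to the depth of the Itgae-positive cells, and dotted lines 1.5-fold; Cxcr6 at 1.14 and Pmepa1 at 1.26 lie nearer to 1 than every other gene drawn.

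The genes above 1.5-fold were Chst12, Ier5l, Lgals7, Isg20, Nt5e, Hilpda, Fbxo32, Pag1 and Pdcd1. Chst12, a sulfotransferase of chondroitin chains, was at 71.7 CPM in Itgae-positive cells and 37.4 CPM in Itgae 0 cells (ratio 1.91, 1.65 to 2.22). It was found in 40.5% of Itgae-positive and 20.96% of Itgae 0 cells, and in 18.6% of Itgae-positive and 9.47% of Itgae 0 cells at 3000 UMIs a cell. Nt5e, which encodes CD73, the ectoenzyme that makes adenosine from AMP, was at 117 CPM in Itgae-positive cells and 72.7 CPM in Itgae 0 cells (1.62, 1.44 to 1.81). Pdcd1, the gene of the inhibitory receptor PD-1, was at 313 CPM in Itgae-positive cells and 201 CPM in Itgae 0 cells (1.56, 1.45 to 1.67). At equal depth its log2 ratio was 0.51, below 1.5-fold. Pag1 encodes a membrane adaptor that brings the kinase CSK to restrain receptor signalling, and stood at 67.2 CPM in Itgae-positive and 42.5 CPM in Itgae 0 cells.

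Isg20, an interferon-induced exonuclease, was at 241 CPM in Itgae-positive cells and 147 CPM in Itgae 0 cells, found in 76.0% of Itgae-positive and 53.5% of Itgae 0 cells. Hilpda, an inhibitor of lipid droplet breakdown that hypoxia induces, was at 273 CPM in Itgae-positive cells and 169 CPM in Itgae 0 cells, and Fbxo32, a ubiquitin ligase component, at 70.1 CPM in Itgae-positive and 44.0 CPM in Itgae 0 cells. Ier5l, a relative of the immediate early gene Ier5, was at 70.4 CPM in Itgae-positive and 38.7 CPM in Itgae 0 cells, while Ier5 itself was lower. Lgals7, a galectin, was at 77.1 CPM in Itgae-positive and 46.1 CPM in Itgae 0 cells, but its log2 ratio changed sign with depth: 1.45 among the shallowest tertile of cells, -0.60 in the middle tertile and 1.10 in the deepest. Just below 1.5-fold on the (CPM + 1) scale, with plain CPM ratios of 1.498 to 1.5003, were Ldlrad4, an inhibitor of TGF-beta receptor signalling, at 172 CPM in Itgae-positive and 114 CPM in Itgae 0 cells, Fgl2, a secreted protein with suppressive activity, at 180 CPM in Itgae-positive and 120 CPM in Itgae 0 cells, and Spsb1, a SOCS box protein, at 65.0 CPM in Itgae-positive and 43.4 CPM in Itgae 0 cells.

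Promoters are shown for 3 of the higher genes and, as a contrast, for Klf2 among the lower ones, since Smad proteins bind a short box, CAGAC, and Itgae is a Smad target. Each is the 250 bases before the RefSeq start site (GRCm38.p6), written in the direction of transcription, with CAGAC or its reverse complement GTCTG in capitals. Chst12 is at chr5:140505359-140505608 (plus strand), Nt5e at chr9:88327359-88327608 (plus), Pdcd1 at chr1:94052554-94052803 (minus) and Klf2 at chr8:72318812-72319061 (plus).
Chst12: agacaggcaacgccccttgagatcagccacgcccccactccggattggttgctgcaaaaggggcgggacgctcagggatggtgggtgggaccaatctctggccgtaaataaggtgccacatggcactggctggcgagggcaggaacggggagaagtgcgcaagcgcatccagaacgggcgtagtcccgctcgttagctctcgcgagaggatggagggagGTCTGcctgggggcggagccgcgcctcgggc
Nt5e: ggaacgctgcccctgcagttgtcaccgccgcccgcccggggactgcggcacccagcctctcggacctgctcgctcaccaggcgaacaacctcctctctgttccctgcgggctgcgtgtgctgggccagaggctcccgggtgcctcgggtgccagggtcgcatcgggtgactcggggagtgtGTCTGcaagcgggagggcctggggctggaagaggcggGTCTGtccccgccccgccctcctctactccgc
Pdcd1: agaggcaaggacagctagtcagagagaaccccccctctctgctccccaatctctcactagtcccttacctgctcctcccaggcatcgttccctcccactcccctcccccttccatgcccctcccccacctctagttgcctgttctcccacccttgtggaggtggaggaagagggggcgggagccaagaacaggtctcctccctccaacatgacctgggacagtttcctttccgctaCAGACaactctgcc
Klf2: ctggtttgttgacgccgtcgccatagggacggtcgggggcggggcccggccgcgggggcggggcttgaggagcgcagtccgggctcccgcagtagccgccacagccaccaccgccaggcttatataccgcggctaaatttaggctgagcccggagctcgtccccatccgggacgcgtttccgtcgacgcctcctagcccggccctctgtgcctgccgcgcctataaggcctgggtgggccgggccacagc
The box was present once in Chst12, 2 times in Nt5e, once in Pdcd1 and nowhere in the Klf2 window. It was present on either strand in 42.2% of all 32851 promoter windows of this length, and so is common. With 1 window per gene, 8 of 9 of the highest genes with an entry held it and 3 of 10 of the lowest, against 42.1% of all 27025 genes. Itgae and Pmepa1 had no window, Cxcr6 had 1, which held the box, and Klf2 is not among the lowest genes counted here. The promoters shown were picked by hand, and stand for neither the higher nor the lower genes. These genes were ranked in the same data, and a part of Smad proteins was not tested. A match is a run of letters and no binding was measured.

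The 5 genes at least 1.5-fold lower were Tcf7, Ccr7, Nfkbia, Ifng and Ly6c2. Tcf7, the transcription factor TCF1 of naive and stem-like T cells, was at 49.0 CPM in Itgae-positive cells and 101 CPM in Itgae 0 cells (ratio 0.485, 0.413 to 0.566). It was found in 12.7% of Itgae-positive cells (9.71 to 16.3%) and 20.9% of Itgae 0 cells (19.1 to 22.9%) at 3000 UMIs a cell, and in none of the myeloid barcodes. Ccr7, the receptor that leads T cells to lymph nodes, was at 55.7 CPM in Itgae-positive cells and 108 CPM in Itgae 0 cells (0.515, 0.444 to 0.596). Nfkbia, the feedback inhibitor of NF-kappa B, was at 285 CPM in Itgae-positive cells and 457 CPM in Itgae 0 cells (0.625, 0.585 to 0.667). Ifng, the Th1 cytokine, was at 72.5 CPM in Itgae-positive cells and 113 CPM in Itgae 0 cells (0.639, 0.560 to 0.728).

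With Itgae 0 cells weighted to the same depth, the log2 ratios of Nfkbia and Ifng were -0.55 and -0.48, short of 1.5-fold, and that of Tcf7 was -1.04. Ly6c2 was at 141 CPM in Itgae-positive cells and 220 CPM in Itgae 0 cells, and shares near-identical sequence with Ly6c1, so its counts may be split between the copies. The other genes among the 12 lowest had ratios of 0.67 to 0.71: Ier5, S1pr1, Gadd45b, Slamf6, Zfp36l1, Gimap6 and Cdkn2d. Slamf6, a receptor of stem-like T cells, was at 80.8 CPM in Itgae-positive cells and 119 CPM in Itgae 0 cells.

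Genes of exit from tissue and of the naive or stem-like state were lower together. Of 15 measured genes of the egress and recirculation list, 6 were at least 1.5-fold lower and 1 higher, with a median log2 ratio of -0.39. Of 11 measured naive and stem-like genes, 5 were lower and 0 higher, with a median of -0.56; measured genes on both lists were Tcf7, Ccr7, Klf2, Lef1, S1pr1 and Il7r. Over all 5686 genes of at least 10 CPM, the floor used for lists, 1.06% were that much higher, 0.739% that much lower and 1.79% past the fold in either direction, with a median of 0.05.

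Klf2, the factor that drives S1pr1, was at 30.2 CPM in Itgae-positive cells (24.9 to 36.4) and 66.4 CPM in Itgae 0 cells (62.2 to 70.8). Its log2 ratio was -0.21 among the shallowest tertile of cells, -1.25 in the middle tertile and -1.18 in the deepest. It is not specific to T cells, since 10 of the 16 myeloid barcodes held it. Klf3, a related repressor, was at 12.3 CPM in Itgae-positive cells and 40.3 CPM in Itgae 0 cells, a log2 ratio of -1.63. S1pr1 was at 65.6 CPM in Itgae-positive cells and 97.4 CPM in Itgae 0 cells (0.673, 0.585 to 0.772).

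Not every recirculation gene was lower. Il7r, the receptor for the survival cytokine IL-7, was at 294 CPM in Itgae-positive cells and 206 CPM in Itgae 0 cells, a log2 ratio of 0.51. Cx3cr1, a chemokine receptor of circulating effector cells, was at 15.0 CPM in Itgae-positive cells and 7.86 CPM in Itgae 0 cells. Spleen cells with no Itgae UMI held Klf2 at 896 CPM, Tcf7 at 462 CPM and S1pr1 at 174 CPM, so both sets of heart cells lay below the spleen library for these genes, the Itgae-positive cells furthest.

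The summed levels of some genes rose or fell in order with the number of Itgae UMIs, the measure that chose the cells. Klf2 was at 66.4, 42.3, 34.6 and 26.0 CPM in cells with 0, 1, 2 and 3 or more Itgae UMIs, and Tcf7 at 101, 76.2, 57.3 and 40.8 CPM in the same classes. Pdcd1 was at 201, 275, 284 and 340 CPM, and Pmepa1 at 436, 466, 526 and 574 CPM. Cxcr6 had no such order, at 361, 446, 378 and 441 CPM. Ccr7 was at 108, 35.9, 42.1 and 68.9 CPM, lowest where Itgae was found once. Neighbouring classes were not always apart. Klf2 had intervals of 35.8 to 49.5 CPM at 1 Itgae UMI and 26.6 to 44.1 CPM at 2. Those of Pdcd1 were 258 to 292 CPM at 1 and 260 to 310 CPM at 2. The classes also differ in depth, from a median of 7167.5 UMIs at 0 to 8344.5 UMIs at 3 or more, and the part of depth in these orders was not tested.

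**Figure D3:**
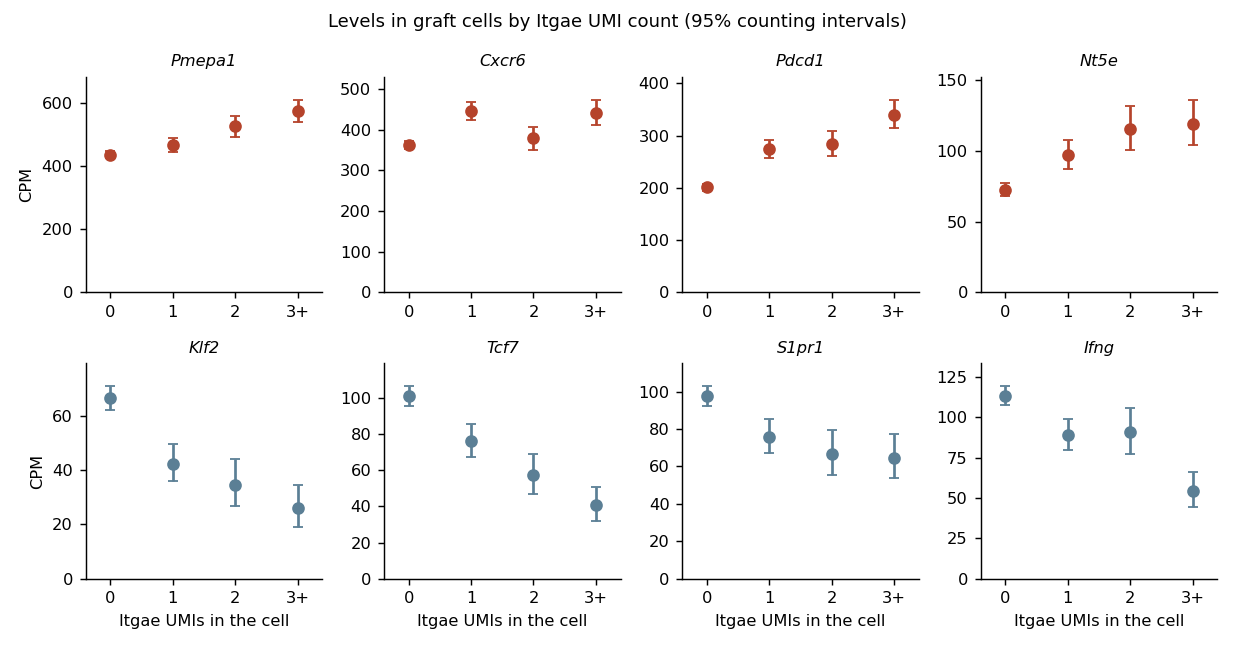
CPM of 8 genes in heart cells with 0, 1, 2 and 3 or more Itgae UMIs (1842, 447, 223 and 202 cells), with exact 95% Poisson intervals and a separate axis from 0 for each gene. Klf2 and Tcf7 are lowest and Pmepa1 and Pdcd1 highest at 3 or more. S1pr1 (66.4 and 64.7 CPM) and Nt5e (116 and 119 CPM) are nearly equal at 2 and at 3 or more. Cxcr6 at 441 CPM at 3 or more is below its 446 CPM at 1.

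The TGF-beta pathway list had 16 of its 24 genes measured, none past 1.5-fold, with a median log2 ratio of 0.15. Among ligand and receptors, Tgfb1 was at 260 CPM in Itgae-positive cells and 217 CPM in Itgae 0 cells (log2 ratio 0.26). Tgfbr2 had a log2 ratio of 0.16, Tgfbr1 one of 0.06 and Tgfbr3, the co-receptor betaglycan, one of 0.42. Itgav, a chain of the integrins that release active TGF-beta, had one of 0.34, and Furin, which cleaves its precursor, one of 0.13.

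Among signal carriers, Smad3 was at 9.90 CPM in Itgae-positive and 14.2 CPM in Itgae 0 cells (log2 ratio -0.48), Smad2 had a log2 ratio of 0.14 and Smad4 one of 0.01. Among inhibitors and feedback genes, Ldlrad4 had one of 0.58, Pmepa1 0.33, Skil 0.15 and Ski 0.01. Smad7, the inhibitory Smad, was at 429 CPM in Itgae-positive and 448 CPM in Itgae 0 cells (log2 ratio -0.06), which became 0.04 at equal depth, and Tgif1, a corepressor, had one of -0.15. Smurf2, a ubiquitin ligase for Smads and their receptor, had one of 0.32. Tgfb2, Smad6 and Itgb8 had 0 UMIs in both sets.

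Of 24 integrin and adhesion genes, 16 were measured, 1 was past 1.5-fold and the median log2 ratio was 0.07. That gene was Jaml, an adhesion molecule that binds CAR on epithelium and appears under its older symbol Amica1, at 43.1 CPM in Itgae-positive cells and 26.3 CPM in Itgae 0 cells (ratio 1.64, 1.35 to 1.98), though its log2 ratio was -0.10 in the shallowest tertile of cells. No measured integrin chain passed 1.5-fold in either direction. Itga4 was at 119 CPM in Itgae-positive and 157 CPM in Itgae 0 cells, Itgb1 at 267 CPM in Itgae-positive and 338 CPM in Itgae 0 cells, and Itga6 at 15.5 CPM in Itgae-positive and 22.2 CPM in Itgae 0 cells. Itgb3 and Cd226, an activating receptor, had log2 ratios of 0.42 and 0.48, and Itgb2, Selplg and Itgal ones of 0.27, 0.24 and -0.06. Cdh1, the E-cadherin that CD103 binds, was under the 10 CPM floor and so outside the 16 measured genes. It was found in few cells, with 49 UMIs in Itgae-positive cells (13.1 CPM) and 86 UMIs in Itgae 0 cells (6.09 CPM), a ratio of 2.15 (1.48 to 3.09).

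The residency-associated list had 20 genes measured, 1 higher and 0 lower, with a median log2 ratio of 0.08. The higher gene was Xcl1, a chemokine for cross-presenting dendritic cells, at 20.1 CPM in Itgae-positive and 8.21 CPM in Itgae 0 cells, but 34 of its 75 UMIs in Itgae-positive cells came from 2 cells and 19 from 1 cell with a Foxp3 UMI. Its log2 ratio was -0.48 in the shallowest, -0.63 in the middle and 1.58 in the deepest tertile of cells, and in cycling cells it was at 10.5 CPM with at least 2 Itgae UMIs and 38.2 CPM with 0. P2rx7 and Litaf had log2 ratios of 0.42 and 0.37, Runx3, a factor of the resident and cytotoxic programs, one of 0.26, and Rgs1 one of 0.22. Id2 had one of -0.34, and Zfp683, the factor Hobit, was under the floor.

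Effector genes were near equal or modestly different. Of 16 measured Th1 and effector genes 0 were higher and 1, Ifng, lower, with a median log2 ratio of 0.10. At 3000 UMIs a cell, Ifng was found in 10.6% of Itgae-positive cells (7.85 to 13.9%) and 14.6% of Itgae 0 cells (13.1 to 16.4%). Tnfsf11, the ligand RANKL, was at 112 CPM in Itgae-positive and 80.6 CPM in Itgae 0 cells. Of 12 cytotoxic genes 0 were higher and 1 lower, with a median of 0.20. Gzma was at 21.9 CPM in Itgae-positive cells and 50.6 CPM in Itgae 0 cells, found in 5.41% of Itgae-positive and 5.81% of Itgae 0 cells, with 178 of 715 Itgae 0 UMIs in 2 cells.

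Gzmb was at 248 CPM in Itgae-positive and 239 CPM in Itgae 0 cells, although cells with at least 3 Itgae UMIs held 310 CPM and cells with 2 held 184 CPM. Of its 925 UMIs in Itgae-positive cells 157 came from 2 cells, and its log2 ratio of 0.05 became -0.34 without cells that had a Foxp3 UMI. Gzmk was at 120 CPM in Itgae-positive and 106 CPM in Itgae 0 cells, and no myeloid barcode had a UMI of either granzyme. Ctsw, a cathepsin of cytotoxic cells, had a log2 ratio of 0.48 and Ctla2a, a cysteine protease inhibitor, one of 0.42, while Ctla2b, which is close to it in sequence, had one of 0.40. Of 8 chemokine receptors 1, Cx3cr1, was higher and 1, Ccr7, lower, with a median of 0.19.

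Of 13 inhibitory and exhaustion genes, 1, Pdcd1, was higher and 0 lower, with a median log2 ratio of 0.15. Entpd1, which encodes CD39 and acts before CD73, was at 27.0 CPM in Itgae-positive cells and 20.7 CPM in Itgae 0 cells, Lag3 had a log2 ratio of 0.30 and Havcr2 one of 0.39. Cd200 was at 12.04 CPM in Itgae-positive and 17.98 CPM in Itgae 0 cells. Il10, an anti-inflammatory cytokine, was found in 5.42% of Itgae-positive and 5.73% of Itgae 0 cells at 3000 UMIs a cell, and its log2 ratio of -0.24 became 0.08 at equal depth.

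The regulatory T cell list had the highest median of the 18 lists, 0.30, with 3 of 17 measured genes higher and 0 lower: Il2ra, Nt5e and Ikzf4. Over all 5686 genes of at least 10 CPM, 1.06% were that much higher and 0.739% lower. Foxp3, the factor that defines regulatory T cells, was under the floor in CPM but unevenly placed. It was found in 16 of 425 Itgae-positive cells (3.76%, 2.17 to 6.04%) and 6 of 1842 Itgae 0 cells (0.326%, 0.120 to 0.708%), and at 3000 UMIs a cell in 2.12% of Itgae-positive and 0.165% of Itgae 0 cells. The 5 of 447 cells with 1 Itgae UMI lay between (1.119%). Of 27 heart cells with a Foxp3 UMI within the limits, 21 had at least 1 Itgae UMI. In 12 of the 16 Itgae-positive cells Foxp3 was found with at least 2 UMIs, and no myeloid barcode held it.

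These 16 cells held a set of regulatory genes at high levels and set the difference in Il2ra, the IL-2 receptor alpha chain CD25. Il2ra was at 424 CPM in Itgae-positive cells with Foxp3 (332 to 534), 16.0 CPM in Itgae-positive cells without it (12.1 to 20.7) and 19.2 CPM in Itgae 0 cells without it (17.0 to 21.6). The 6 Itgae 0 cells with Foxp3 held it at 294 CPM on 15 UMIs. Its log2 ratio of 0.75 over all cells became -0.25 without cells that had a Foxp3 UMI. Ikzf2, the factor Helios, was at 818 CPM in Itgae-positive cells with Foxp3, 188 CPM in those without and 149 CPM in Itgae 0 cells without. Ctla4 was at 1854 CPM in Itgae-positive cells with Foxp3, 840 CPM in those without and 780 CPM in Itgae 0 cells without. For Tnfrsf4, the costimulatory receptor OX40, the order was 1330.5 CPM with Foxp3, 531 CPM without and 553 CPM in Itgae 0 cells without.

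Without cells that had a Foxp3 UMI, the log2 ratios of Nt5e and Pdcd1 were 0.65 and 0.64, still past 1.5-fold, while that of Ikzf4 was 0.52, short of it. Ikzf4 was at 47.1 CPM (8 UMIs) in Itgae-positive cells with Foxp3, 16.8 CPM in those without and 11.4 CPM in Itgae 0 cells without. Nt5e was at 206 CPM in Itgae-positive cells with Foxp3, 113 CPM in those without and 71.7 CPM in Itgae 0 cells without, and Capg, an actin-capping protein, at 842 CPM, 419 CPM and 294 CPM in the same sets. Pdcd1 was at 306 CPM in Itgae-positive cells with Foxp3 and 313 CPM in those without. Among receptor segments of the 16 cells, Trbv19 of the TEa beta chain made up 6 of 8 Trbv UMIs (34.9 to 96.8%). The Trav14 family made up 12 of 15 Trav UMIs (51.9 to 95.7%). These UMIs are too few to set a share or to say how many of the 16 cells carried the TEa segments.

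**Figure D4:**
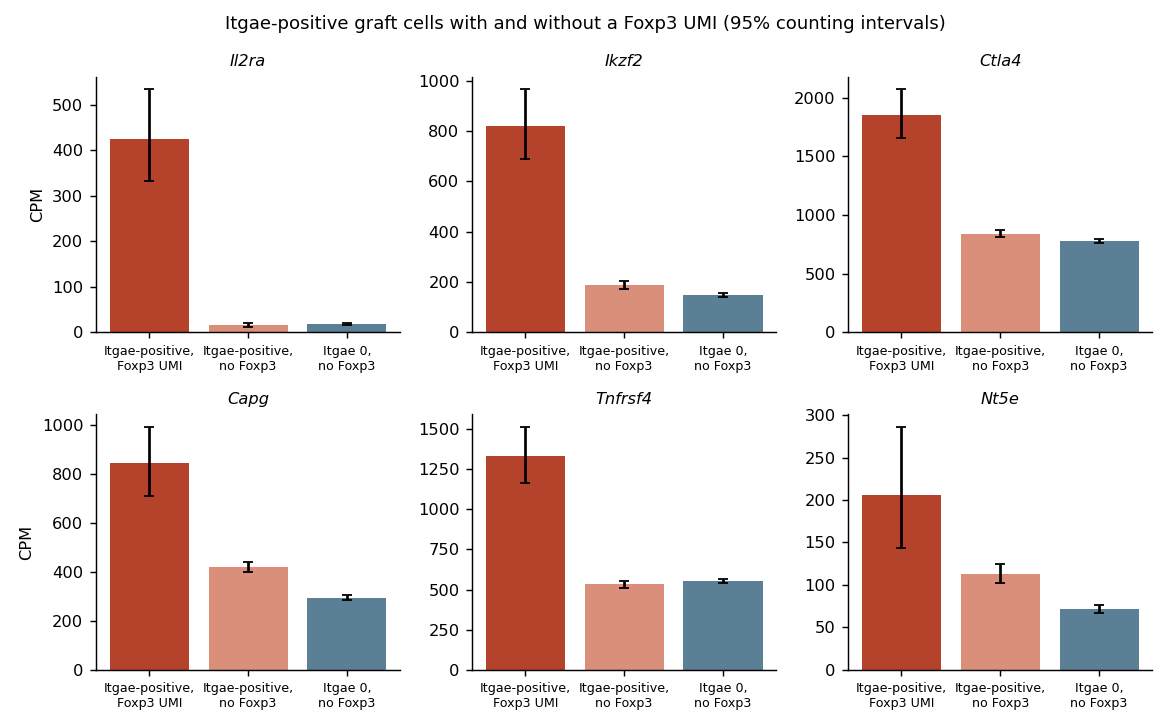
CPM of 6 genes in Itgae-positive heart cells with a Foxp3 UMI (16 cells), Itgae-positive cells without one (409 cells) and Itgae 0 cells without one (1836 cells). Bars are summed counts with exact 95% Poisson intervals; Il2ra at 424, 16.0 and 19.2 CPM is high in the first set, while Nt5e and Capg step down across all 3.

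Immediate early genes are raised by antigen receptor signals and also by handling of cells. Of 19 measured, 4 were at least 1.5-fold lower and 0 higher, beside 0.739% lower and 1.06% higher of all genes of at least 10 CPM. Their median log2 ratio was -0.28, which became -0.12 at equal depth and -0.05 over members of at least 50 CPM. The 4 were Fos, at 12.3 CPM in Itgae-positive and 27.7 CPM in Itgae 0 cells, Fosb, at 13.1 CPM in Itgae-positive and 23.6 CPM in Itgae 0 cells, Zfp36, at 32.9 CPM in Itgae-positive and 54.6 CPM in Itgae 0 cells, and Nfkbia. Nr4a1, a reporter of recent receptor signalling, had a log2 ratio of -0.29, and -0.12 at equal depth.

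Of 14 genes of IL-2 signalling 1, Il2ra, was higher and 0 lower, with a median of 0.15. Of 14 costimulatory genes 0 were higher and 1 lower, with a median of 0.18. The lower gene was Tnfsf8, the CD30 ligand, at 14.2 CPM in Itgae-positive and 29.4 CPM in Itgae 0 cells, with 25 of 53 UMIs of the Itgae-positive cells in 2 cells. Of 5 other helper regulators measured none was past 1.5-fold, with a median of -0.13. Il17a had 0 UMIs in Itgae-positive cells and 90 in Itgae 0 cells, 63 of them in 2 cells.

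No listed glycolysis or heat shock gene passed 1.5-fold over all Itgae-positive cells. None of 18 measured glycolysis genes passed 1.5-fold, with a median log2 ratio of 0.06, and Ldha, whose loss the wider study addresses, was at 802 CPM in Itgae-positive cells and 834 CPM in Itgae 0 cells (ratio 0.962, 0.924 to 1.001). None of 10 heat shock genes passed it, with a median of -0.06; the log2 ratios of Hspa1a and Hspa1b were -0.19 and -0.47, and 0.10 and -0.09 at equal depth. The 2 genes differed more between Itgae classes, with Hspa1a at 59.9, 53.9, 91.3 and 14.3 CPM and Hspa1b at 39.6, 34.5, 45.4 and 11.7 CPM in cells with 0, 1, 2 and 3 or more Itgae UMIs. Over cells with 3 or more their log2 ratios to Itgae 0 cells were -1.99 and -1.68, on 27 and 22 UMIs. Few cells held either gene: Hspa1a was found in 6.35% of Itgae-positive and 7.60% of Itgae 0 cells. Hspa1b was found in 5.88% of Itgae-positive and 7.98% of Itgae 0 cells. Of 15 interferon response genes 1, Isg20, was higher and 0 lower, with a median of 0.07, so Isg20 stood apart from Isg15 (0.09) and Ifit1 (0.07). None of 16 AP-1, S100, annexin and galectin genes passed it, with a median of 0.10.

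**Figure D5:**
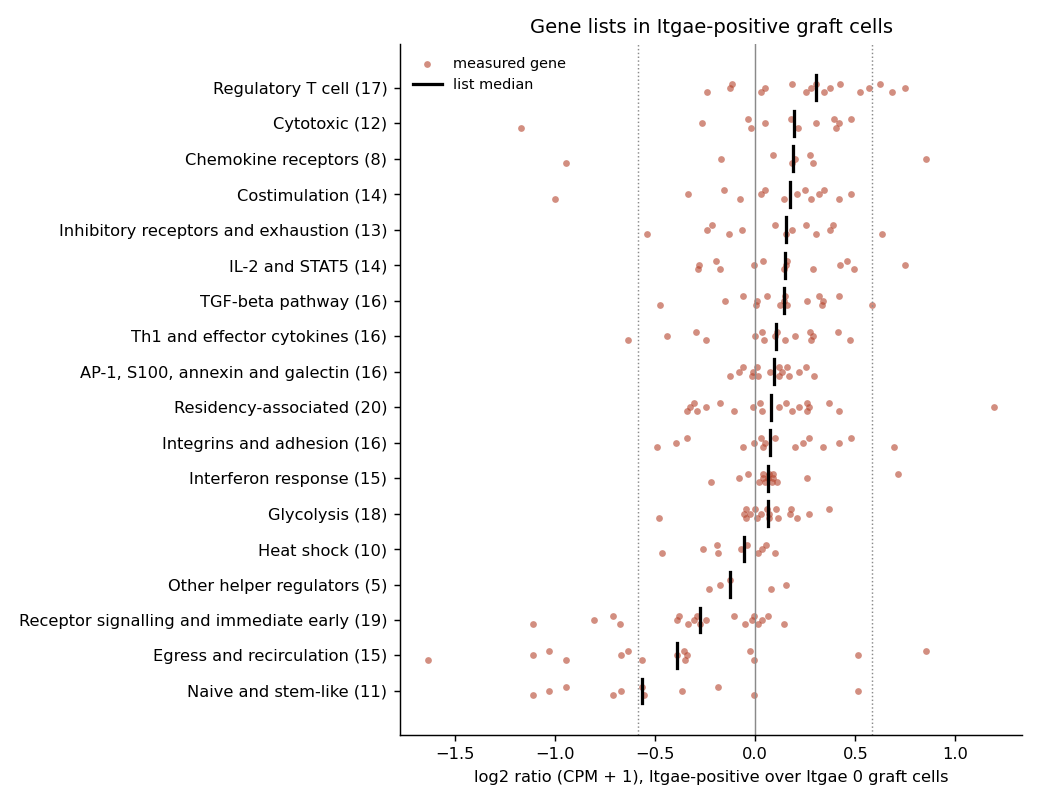
Log2 ratios of (CPM + 1) in Itgae-positive over Itgae 0 heart cells for the measured genes of 18 lists (number measured in brackets), with list medians as black bars and 1.5-fold as dotted lines. The regulatory T cell list has the highest median, 0.30, and the egress and naive lists the lowest, -0.39 and -0.56, while most medians lie near the 0.05 of all genes.

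Markers of other cells were low and partly moved with the comparison. The 10 T cell markers summed to 14471 CPM in Itgae-positive and 13430 CPM in Itgae 0 cells. Monocyte or macrophage markers summed to 428 CPM in Itgae-positive and 356 CPM in Itgae 0 cells, of which Ctss, which T cells can also carry, made up 293 CPM in Itgae-positive and 225 CPM in Itgae 0 cells. Among its more specific genes, C1qa was at 4.01 CPM in Itgae-positive and 1.13 CPM in Itgae 0 cells, C1qb at 4.28 CPM in Itgae-positive and 0.920 CPM in Itgae 0 cells, and C1qc at 4.01 CPM in Itgae-positive and 0.283 CPM in Itgae 0 cells. C1qc was found in 0.941% of Itgae-positive and 0.163% of Itgae 0 cells, and Adgre1 was at 0 in both. Dendritic cell markers summed to 53.5 CPM in Itgae-positive and 24.99 CPM in Itgae 0 cells, led by Cd74, of which 91 of 121 UMIs in Itgae-positive cells came from 2 cells, and H2-Ab1 was at 10.7 CPM in Itgae-positive and 3.11 CPM in Itgae 0 cells. Flt3, Clec9a, Siglech and Cd209a were at 0 in both. Leaving out cells with at least 10 Cd74 UMIs gave the same counts of 9 higher and 5 lower genes.

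B cell markers summed to 53.2 CPM in Itgae-positive and 45.2 CPM in Itgae 0 cells, most of it Ighm, which was nearly equal. Cd79a was at 4.28 CPM in Itgae-positive and 1.06 CPM in Itgae 0 cells, and Ebf1 at 3.21 CPM in Itgae-positive cells, where 1 cell held all 12 UMIs, and 0.142 CPM in Itgae 0 cells. The gamma delta list was at 493 CPM in Itgae-positive and 394 CPM in Itgae 0 cells, nearly all of it Trdc. The 2 CD8 genes were at 14.2 CPM in Itgae-positive and 9.63 CPM in Itgae 0 cells. Neutrophil, mast cell, erythroid, platelet, fibroblast and cardiomyocyte markers were below 1 CPM in both sets. Epithelial markers summed to 4.82 CPM in Itgae-positive and 2.62 CPM in Itgae 0 cells. Most of this was Epcam, at 4.01 CPM in Itgae-positive and 2.27 CPM in Itgae 0 cells, while Krt8 was at 0 in both. The part of these markers in the other differences was not tested. Trbv19, a segment of the transgenic beta chain, accounted for 83.4% of Trbv UMIs in Itgae-positive cells (76.7 to 88.9%) and 89.4% in Itgae 0 cells (86.5 to 91.8%). In cells with 1 Itgae UMI it was 81.3% (74.2 to 87.2%), and these differences were not tested. The Trav14 family accounted for 81.8% of Trav UMIs in Itgae-positive and 79.0% in Itgae 0 cells.

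Cycling heart cells, which the limits leave out, allowed the same genes to be read in other cells of the same library. Of the 12 highest genes 10 had the same sign between cycling cells with at least 2 and with 0 Itgae UMIs, beside 57.9% of all measured genes with a positive ratio. Chst12 was at 54.4 CPM in cycling cells with at least 2 Itgae UMIs and 33.4 CPM in cycling cells with 0, Nt5e at 97.0 CPM against 54.5 CPM and Pmepa1 at 494 CPM against 364 CPM. Pdcd1 did not differ in that way, at 231 CPM in cycling cells with at least 2 Itgae UMIs and 236 CPM in cycling cells with 0. Of the 12 lowest genes 9 had the same sign, beside 42.1% of all genes with a negative ratio. Their median log2 ratio in cycling cells was only -0.12, while that of the 12 highest was 0.69. Tcf7 was at 64.6 CPM in cycling cells with at least 2 Itgae UMIs and 70.8 CPM in cycling cells with 0, and Klf2 at 39.8 CPM against 62.4 CPM.

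In the spleen library, the 44 cells with at least 1 Itgae UMI could be set against the other spleen cells, on few UMIs. Cxcr6 was at 163 CPM (70 UMIs) in these cells and 19.5 CPM in spleen cells with none, Capg at 202 CPM against 37.2 CPM and Ctla2a at 414 CPM against 81.5 CPM. Pmepa1 was at 34.9 CPM (15 UMIs) in these cells and 8.37 CPM in spleen cells with none. Klf2 was near equal, at 809 CPM in spleen cells with Itgae and 896 CPM in spleen cells without it. Of the 12 genes highest in Itgae-positive heart cells, 7 had the same sign in the spleen comparison, beside 59.9% of all genes, and their median log2 ratio there was 0.04. Of the 12 lowest, 8 had the same sign, beside 40.1% of all genes, with a median of -0.14. Chst12 was at 6.97 CPM (3 UMIs) in spleen cells with Itgae and 8.48 CPM in those without it, and Pdcd1 at 34.9 CPM against 36.2 CPM.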

How the data were processed

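Single-cell libraries were deposited by the authors as raw, unnormalized UMI counts. Per the file headers, Cell Ranger 3.0.2 wrote the heart and wild-type spleen files and Cell Ranger 7.0.1 the Ldha-/- file. Seurat 4.0.0, Cell Ranger 7.0.0 and build mm10 come from the submitters' processing notes. Not given in the sources used here is whether intronic reads were counted. The labels' protocol speaks of nuclei, and mitochondrial genes took 2.94% of UMIs in Itgae-positive and 3.15% in Itgae 0 cells. Only the barcodes of the Ldha-/- library were used, since its gene rows were not named here.

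Counts were summed over the cells of each set and scaled to CPM. A ratio is log2 of (CPM + 1) over (CPM + 1), and the pseudocount of 1 understates ratios of low genes. Genes were counted at a mean of at least 50 CPM and lists at 10 CPM, past 1.5-fold. Left out of counts and lists were the genes used to choose the cells, antigen receptor segments, and genes of mitochondria, ribosomal proteins and haemoglobin, with others of sex-linked or provisional name. Intervals at 95% are exact Poisson for CPM, Clopper-Pearson for shares and conditional for ratios. A count of 0 allows up to 3 counts, or 0.803 CPM in Itgae-positive and 0.212 CPM in Itgae 0 cells. Thinning to 3000 UMIs left out 1 Itgae-positive and 26 Itgae 0 cells.

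Named genes were the 12 highest and 12 lowest, a short fixed set with Itgae, Cxcr6 and Pmepa1, the members of the TGF-beta and integrin lists, and up to 4 of each other list; other list members named in the text (such as Lag3, Ikzf2 and Isg15) were picked after their values were seen. The cells, lists and motif were chosen with earlier results of these data known. No doublet caller was run, and doublets were weighed only by leaving out cells over 3 times the median UMI count. That limit removed no Itgae-positive cell and 0.271% of Itgae 0 cells, so it could not find doublets among the Itgae-positive cells. Python 3.11.15, numpy 2.4.6, pandas 2.3.3 and scipy 1.17.1 were used. The ratio was tested on simulated independent Poisson counts with planted changes larger than 1.5-fold. That simulation has no clumping of UMIs in few cells, so it cannot show how the intervals hold for genes that clump. Promoters are from RefSeq on GRCm38.p6.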

Additional observations from a re-analysis of the deposited data

Results flagged for a closer look

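Among the heart cells left out by the cycling limit, 182 of 1276 held at least 2 Itgae UMIs (14.3%, exact binomial interval 12.4 to 16.3%), a signal in cells outside the main comparison. Their median depth was 14365 UMIs. With each cell thinned to 3000 UMIs, 11.6% of cycling heart cells (9.85 to 13.4%) and 17.7% of the other heart cells (16.3 to 19.2%) held at least 1 Itgae UMI. In the spleen library 0 of 536 cycling cells held at least 2 Itgae UMIs, where 3 counts of 536 allow a share of up to 0.560%.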

How the results depend on the processing

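With 1 heart library no replicate could be left out. No paired analysis was possible because the results come from no test. The counts at 1.5-fold depend on their settings, while the 12 highest and 12 lowest genes kept their sign under each of the 14 alternatives run on them. These genes were picked as the extremes of cells that the alternatives largely reuse, so the kept signs are no independent support. The depth tertiles, in which Lgals7 changed sign, were not among the alternatives. Against 9 higher and 5 lower genes, thinning to 3000 UMIs gave 16 and 12, and totals without mitochondrial, ribosomal protein and Malat1 counts gave 16 and 16. A threshold of 1 Itgae UMI gave 2 and 3, a threshold of 3 gave 17 and 9, a floor of 10 CPM gave 60 and 42, and a fold of 2 gave 0 and 1. The lower genes numbered 3 at equal depth, 9 as a mean of per-cell CPM and 9 without cells with a Foxp3 UMI. The share of 15.7% became 32.1% at 1 or more Itgae UMIs and 7.44% at 3 or more. Of 113 named genes, only Il2ra was past 1.5-fold and changed sign, to -0.25 without cells with a Foxp3 UMI. Genes short of 1.5-fold could also change sign, such as Iigp1, from a log2 ratio of 0.26 to as low as -0.01. Leaving out cells with at least 10 Cd74 UMIs was chosen after seeing the data and moved none of the 113. Causes were not tested, except that a lower threshold or floor and a smaller total admit other cells or genes by construction. The smaller total also shifts the ratios. Depth limits low genes: 43 Foxp3 UMIs stand behind the value in Itgae-positive cells.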

Other observations

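Several genes below the 50 CPM floor differed by at least 2-fold at a mean of at least 10 CPM, where 5 genes were that much higher and 9 lower; those named next were chosen after their values were seen. Dapk2, a death-associated protein kinase, was at 35.1 CPM in Itgae-positive cells and 14.9 CPM in Itgae 0 cells (ratio 2.35, 1.87 to 2.93) and was spread over 102 Itgae-positive cells. Apol9b, an apolipoprotein L family gene, was at 21.9 CPM in Itgae-positive cells and 9.70 CPM in Itgae 0 cells. Cd9, a tetraspanin, was at 17.1 CPM in Itgae-positive cells and 36.5 CPM in Itgae 0 cells. Adk, the adenosine kinase that removes adenosine inside the cell, was at 8.83 CPM in Itgae-positive cells and 28.7 CPM in Itgae 0 cells (ratio 0.308, 0.209 to 0.440), found in 25 Itgae-positive and 297 Itgae 0 cells. Nt5e, whose product makes adenosine outside the cell, was higher in the summed counts of Itgae-positive cells. Whether the same cells had more Nt5e and less Adk was not tested. Esm1, a secreted proteoglycan, was at 7.22 CPM in Itgae-positive cells and 20.95 CPM in Itgae 0 cells.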
